A study of Mus musculus with 4 samples.

Results

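Cytoplasmic ribosomal protein genes were followed across T cell classes from mouse tumors. The members were all genes whose symbol begins with Rpl or Rps and a digit, together with Rpsa, Rplp0, Rplp1 and Rplp2, leaving out pseudogenes marked by -ps and the Rps6k kinases. This rule took 86 of the 32285 genes counted. Of these, 33 carry names of the small subunit and 52 of the large subunit. The last, Rps19bp1, encodes a protein that binds Rps19 and is no part of the ribosome. The rule uses symbols and no measured value.

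The cells came from subcutaneous tumors of the 105K line, mouse kidney tumor cells without Tsc2, grown in male C57BL/6J mice 6 weeks of age. The tumor cells carried either the non-targeting hairpin sh-NC (control) or sh-B7-H3 (1), a hairpin against Cd276, which encodes the checkpoint protein B7-H3 (knockdown). Only the tumor cells carry a hairpin, and the T cells, sorted for CD3, are those of the host. The submitters' design text describes 80 tumors per group, pooled before sorting and loaded in duplicate on the instrument, while the study elsewhere calls the samples of a group independent. Which of these holds was not settled. The 2 libraries of a group are read here as repeats from 1 pool, so each p-value and SD below speaks of the spread between libraries and not of mice.

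A ribosome joins a small subunit, which reads the mRNA, to a large subunit, which links the amino acids. Nearly all of its proteins are needed in equal amounts, and their mRNAs are among the most abundant of a cell. Most of these mRNAs begin with a C and a run of pyrimidines, the terminal oligopyrimidine (TOP) motif, through which mTORC1, the kinase complex restrained by Tsc1 and Tsc2, controls their translation. T cells that leave the resting state build many new ribosomes before they divide.

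The motif can be seen in the start regions of some of the genes described below. RefSeq windows (GRCm38.p6) were found for 66 of the 86 members. Shown are the 15 bases before and the first 15 bases after the annotated start, 5′ to 3′ on the strand of the gene, for the members that changed most or least and for a pair of paralogs. Capitals mark the longest run of a C followed by at least 6 C or T within the 30 bases, and a sequence without capitals has no such run there. Where a gene had several annotated starts (3 for Rps19 and 2 for Rps27l), the start with the longest such run was picked. Positions are given in the order of the lines as chr7:24884898-24884927 (plus strand), chr2:39005117-39005146 (minus), chr2:32961697-32961726 (plus), chr3:90213634-90213663 (minus), chr9:66946071-66946100 (plus), chrX:102189377-102189406 (minus), chr3:86142654-86142683 (minus), chr7:45128731-45128760 (minus), chr11:101442230-101442259 (plus) and chr7:118116133-118116162 (minus).
Rps19: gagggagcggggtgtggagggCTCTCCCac
Rpl35: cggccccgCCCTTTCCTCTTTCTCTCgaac
Rpl12: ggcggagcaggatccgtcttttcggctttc
Rps27: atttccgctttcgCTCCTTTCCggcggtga
Rps27l: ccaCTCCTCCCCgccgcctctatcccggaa
Rps4x: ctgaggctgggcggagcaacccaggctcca
Rps3a1: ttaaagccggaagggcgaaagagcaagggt
Rpl13a: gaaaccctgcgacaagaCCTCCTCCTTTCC
Rpl27: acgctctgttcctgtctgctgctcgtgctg
Rps15a: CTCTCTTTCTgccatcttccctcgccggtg

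Searched from 20 bases before to 30 bases after the start, a run of C followed by at least 6 C or T stood in 39 of 65 members with a window (60%, Rps19bp1 left out). The same run stood in 4393 of 17427 other coding genes (25.2%). In these counts and those below, a gene counted where any of its annotated starts had a match. The letters CTTTCC, which lie within such a run in Rpl35, Rps27 and Rpl13a, were found in 13 of 65 members (20%) and in 2.62% of the other genes. Over the whole window of 300 bases, from 250 before to 50 after the start, CCGGAAG on either strand, the core bound by ETS factors, was found in 26 of 65 members (40%) against 12.8%. A match describes the letters only, and an annotated start can lie some bases away from the one used in T cells.

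The 4 libraries held 7030 to 12112 called barcodes with 79224898 to 132820909 RNA UMIs, unique molecular identifiers that each stand for 1 captured RNA molecule. After the filters, cells were called as Cd4, Cd8 or Foxp3 cells from their RNA, Foxp3 being the defining factor of regulatory T cells. Each class was split at 20 UMIs of Ccl5, a chemokine of effector and memory T cells, into Ccl5-high cells (at least 20) and Ccl5-low cells (under 20). The 6 pan-T markers (Cd3d, Cd3e, Cd3g and the receptor constants Trac, Trbc1 and Trbc2) were present in every class and library. Cells without a UMI of the Cd3 genes had been left out, so only the receptor constants are free of this rule. The B cell markers summed to at most 21.1 CPM (counts scaled to a common total) and the NK markers to at most 3.52 CPM in the 5 classes tested. Cells with at least 3 UMIs of the B cell markers Cd79a and Ms4a1 had been left out, which limits the B cell sum. Of markers not used to call Foxp3 cells, Il2ra, the high-affinity interleukin receptor chain of regulatory T cells, stood at 229.5 to 305.7 CPM in Ccl5-low Foxp3 cells and at most 18.2 CPM in Cd4 and Cd8 cells. Ikzf2, a transcription factor also used as a marker of regulatory T cells, separated them less, with 733.5 to 1018.9 CPM in Ccl5-low Foxp3, 246.3 to 322.4 CPM in Ccl5-high Cd4 and 87.9 to 154.4 CPM in Ccl5-high Cd8 cells. Pairs of libraries shared 17 to 35 barcodes. Both Foxp3 comparisons that need Ccl5-high cells, of which the libraries held 15, 16, 26 and 28, were not tested. Cd276 itself is expressed by tumor cells, which the sort removes, so it cannot check the labels here.

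In Ccl5-low Cd8 cells, ribosomal protein genes supplied nearly as many UMIs as all other genes together. Their share was highest there, 48.9 and 48.8% with sh-NC and 47.9 and 48.1% with sh-B7-H3 (1). Ccl5-low Cd4 cells gave 45.6 and 45.7% with sh-NC and 42.7 and 43.5% with sh-B7-H3 (1). Ccl5-low Foxp3 cells lay lower, at 36.8 and 36.0% with sh-NC and 30.2 and 31.6% with sh-B7-H3 (1). Thus every Ccl5-low Foxp3 value was under every Ccl5-low Cd4 value, and the Foxp3 cells themselves were spread widely, with quartiles of 23.7 and 45.0% in control library 1.

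Ccl5-high cells had a smaller share in every lineage. In Cd4 cells it was 27.7 and 28.6% with sh-NC and 29.2 and 30.2% with sh-B7-H3 (1). In Cd8 cells it was 36.9 and 36.5% with sh-NC and 33.1 and 33.4% with sh-B7-H3 (1). In the few Ccl5-high Foxp3 cells it was 24.2, 25.0, 25.4 and 26.0%. Within each library the Ccl5-high share was below the Ccl5-low share of the same lineage, by 13.3 to 17.9 percentage points in Cd4 cells and by 12 to 14.8 points in Cd8 cells.

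**Figure D1:**
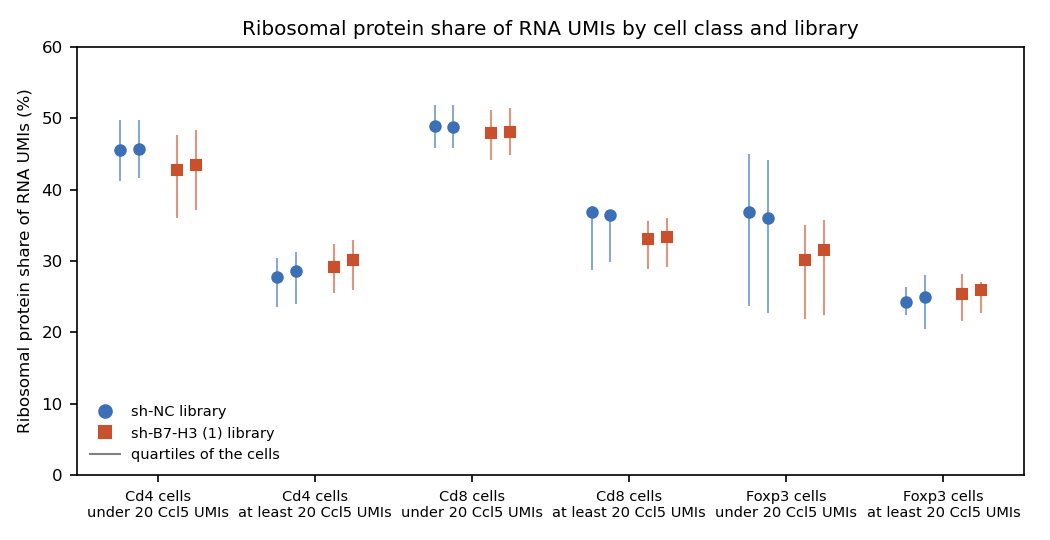
Share of RNA UMIs from the 86 ribosomal protein genes (percent, y axis) for 6 cell classes (x axis), in the 2 sh-NC libraries (circles) and the 2 sh-B7-H3 (1) libraries (squares). Points are the share of the summed UMIs and bars the quartiles of the single cells: Ccl5-low Cd8 cells lie highest at 47.9 to 48.9%, and each Ccl5-high class lies under its Ccl5-low counterpart.

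In Cd4 and Cd8 cells the smaller share went with fewer ribosomal protein UMIs per cell. In Cd4 cells the median cell held 3633 and 3893 member UMIs with sh-NC and 2917 and 3044 with sh-B7-H3 (1) when Ccl5-low, but 1690 and 1853 with sh-NC and 1936 and 1972 with sh-B7-H3 (1) when Ccl5-high. The Ccl5-high to Ccl5-low ratio of these medians was 0.47, 0.48, 0.66 and 0.65. The same ratio for all other genes was 1.15, 1.14, 1.27 and 1.22. In Cd8 cells the ratios were 0.43 to 0.46 for members and 0.86 to 0.90 for other genes. Members and other genes thus moved apart in every library of both lineages, although UMIs per cell depend on capture as well as on RNA content. In Foxp3 cells the ratio was 0.64 and 0.77 for members with sh-NC but 1.06 and 1.04 with sh-B7-H3 (1), where the median Ccl5-high cell did not hold fewer member UMIs.

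The comparison of Ccl5 states asked how single members differed, on sums of UMIs per library scaled by TMM (trimmed mean of M values) to CPM. Log2 fold changes were tested with edgeR's quasi-likelihood test with the library as a block, and a gene was called where the p, adjusted by Benjamini and Hochberg over all genes tested, was under 0.05. In Cd4 cells 79 of 83 members tested were lower in Ccl5-high cells, where 26.3% of all genes tested were called lower, and 1 was higher (26.3% of all genes). The members' median log2 fold change was -0.94, against 0.00 for all genes tested. In Cd8 cells 80 of 84 members were lower, where 27.2% of all genes were called lower. None was called higher, against 27.7% of all genes, nor was any at an unadjusted p under 0.05 or by DESeq2. Here the median was -0.77, against 0.01 for all genes. The fall was thus broad, but its size ranged from -1.75 to 0.41 in Cd4 and from -1.38 to -0.03 in Cd8 cells. Small subunit members had a median of -1.03 in Cd4 and -0.95 in Cd8 cells, and large subunit members -0.86 and -0.73. With totals in place of TMM factors, the median of all genes was 0.31 in Cd4 and 0.33 in Cd8 cells and the members' medians were -0.62 and -0.44, so the members stood apart from other genes on both scales. The split of all calls moved with the scale, from 2567 higher and 2567 lower to 4393 and 1438 in Cd4 cells, and from 2768 and 2719 to 5314 and 1386 in Cd8 cells. Of the members 75 were then lower and 3 higher in Cd4 cells, and 74 lower and 3 higher in Cd8 cells.

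Rps19 (GRCm38 chromosome 7, 24884371 to 24889806, plus strand), a small subunit protein mutated in Diamond-Blackfan anemia, fell most. In Ccl5-low Cd4 cells it had 8622, 8613, 8685 and 8849 CPM in control libraries 1 and 2 and knockdown libraries 1 and 2. In Ccl5-high Cd4 cells it had 2450.3, 2421, 2619 and 2857 CPM. The groups lay far apart, and the log2 fold change was -1.75 (SE 0.06, adjusted p = 4.3e-09, edgeR). In Cd8 cells Rps19 went from 8874, 8706, 9670.1 and 9618 CPM to 4151, 3804, 3128 and 3187 CPM, a log2 fold change of -1.38 (SE 0.08, adjusted p = 2.7e-07, edgeR).

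Rps20, a protein of the small subunit head, followed with -1.53 in Cd4 and -1.35 in Cd8 cells. Rpl12, a large subunit protein at the base of the stalk, fell by 1.5 on the log2 scale in Cd4 cells, from 8785 to 8943 CPM over the libraries to 2861 to 3431 CPM. Rpl35, at the exit of the peptide tunnel, fell by 1.31 on the log2 scale in Cd8 cells, from 3877 to 4470.2 CPM to 1493 to 1815 CPM. The start regions of Rpl12 and Rpl35 above differ. The pyrimidines tcttttc in Rpl12 begin with a T and hold no C followed by at least 6 C or T, so no run is marked. Of the sequences above, Rpl35 has the longest marked run. Over the tested members with a RefSeq window, the Cd4 state medians were -0.99 with such a run (38 members) and -0.88 without (24). In Cd8 cells they were -0.78 (39) and -0.83 (24), so the order of both sets turned between the lineages. Members without a RefSeq window are not in these medians.

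The 5 members with the highest mean level, counted as UMIs of transcript ends, were Rps24, Rps29, Rps15a, Rps27 and Rplp1. These levels depend also on how many reads map to 1 place only, since many members have pseudogene copies. Rps24, with 17826, 17631, 15574 and 15849 CPM in Ccl5-low Cd4 cells, fell to 5851, 6313, 6356 and 6598 CPM in Ccl5-high cells, a log2 fold change of -1.41. Rps29 fell by 1.46 and Rplp1, an acidic protein of the stalk that recruits elongation factors, by 1.14 on the log2 scale. Rps15a did otherwise: it had 10482, 10347, 9855 and 10148 CPM in Ccl5-low and 8797, 9352, 9876 and 10522 CPM in Ccl5-high Cd4 cells. These values overlapped, and the log2 fold change of -0.09 was not called (adjusted p = 0.24, edgeR), while in Cd8 cells Rps15a fell by 0.31. Rpl27 was not called in either lineage, with log2 fold changes of 0.04 (SE 0.06, adjusted p = 0.57) and -0.03 (SE 0.04, adjusted p = 0.46, edgeR).

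The other members fixed by role fell in both lineages. Rps6, the small subunit protein that S6 kinase phosphorylates downstream of mTORC1, changed by -1.03 in Cd4 and -0.96 in Cd8 cells on the log2 scale. Rpsa, also known as the laminin receptor, changed by -1.23 and -1.05. Rplp0, the base protein of the stalk, changed by -1.32 and -1.12. Rpl41, the smallest ribosomal protein, changed by -0.76 and -0.73. Rpl13a, which also has a known role in silencing translation outside the ribosome, changed less, by -0.30 and -0.10.

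Constituents of the ribosome that the symbol rule leaves out fell too. Rack1, the scaffold protein on the small subunit, changed by -1.11 in Cd4 and -0.87 in Cd8 cells. Fau, which encodes Rps30 fused to a ubiquitin-like protein, changed by -0.50 and -0.28. Both were called lower in both lineages.

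**Figure D2:**
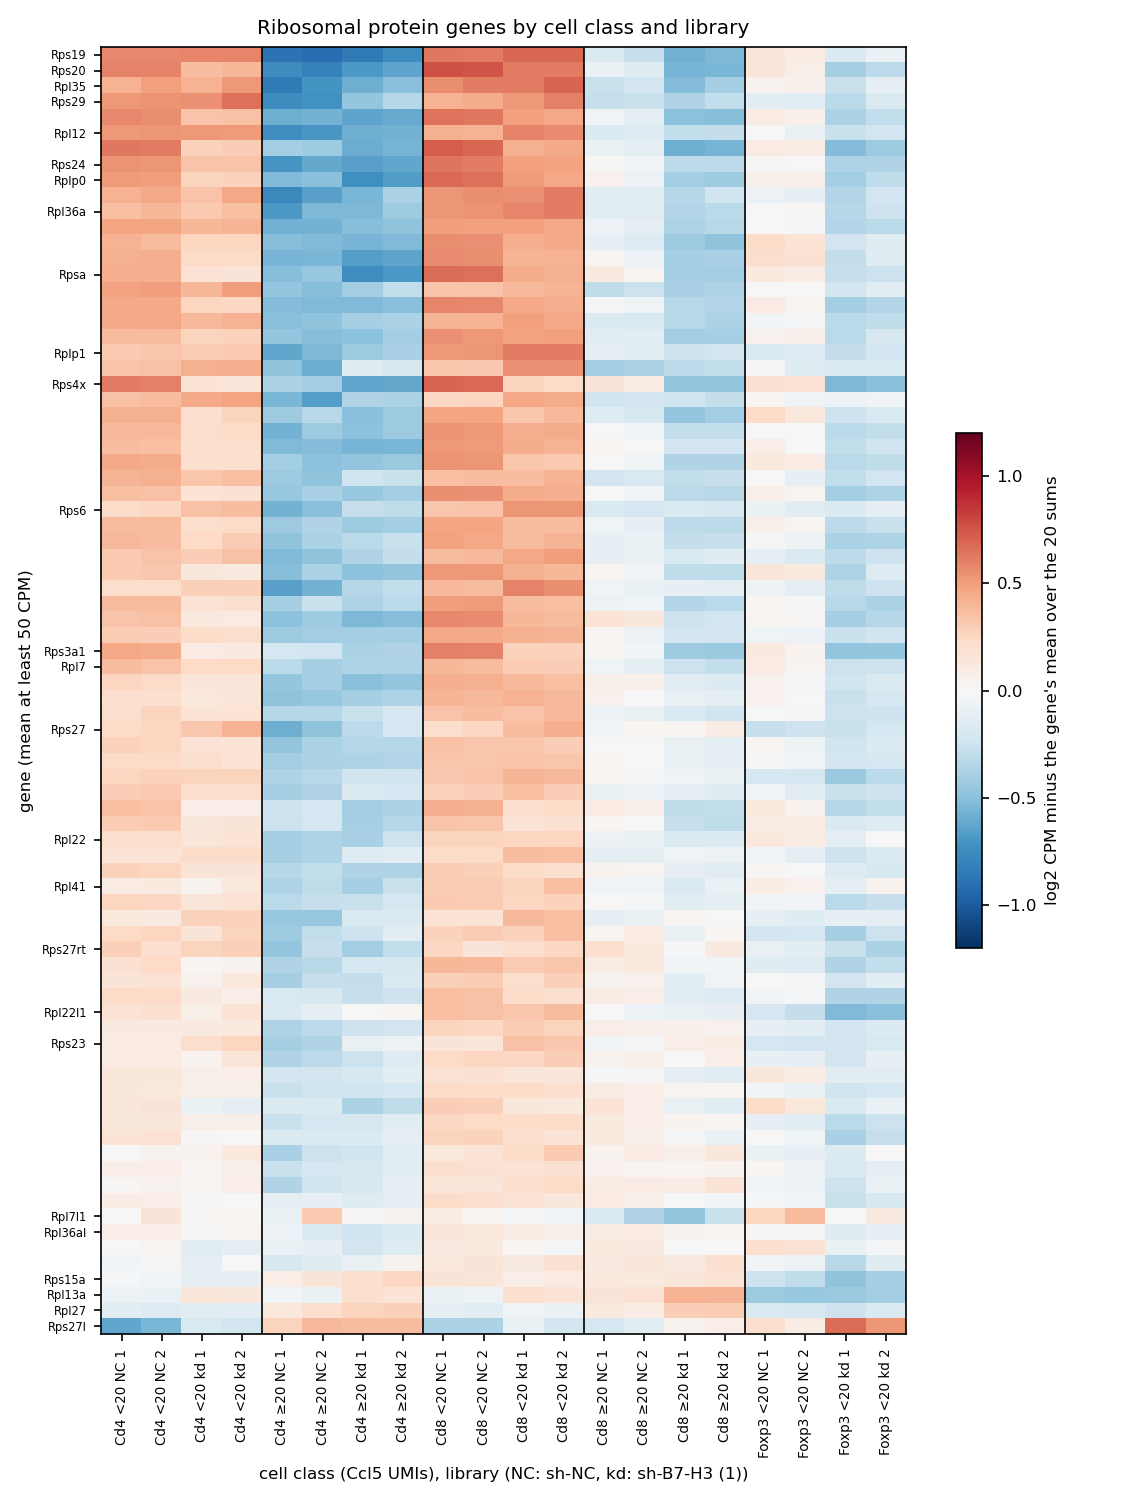
Log2 CPM of each ribosomal protein gene with a mean of at least 50 CPM (rows, ordered by the Ccl5-high to Ccl5-low difference) minus its own mean over 20 sums, for 5 cell classes in 4 libraries (columns, NC for sh-NC and kd for sh-B7-H3 (1)). Most rows are red in Ccl5-low Cd4 and Cd8 cells and blue in Ccl5-high and Foxp3 cells, and Rps27l at the bottom runs the other way in Cd4 cells. Names stand beside the genes described in the text.

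Some paralogs are set side by side here. Rps27l, a paralog of Rps27 known as a p53 target, had 141, 147, 190.5 and 189.8 CPM in Ccl5-low Cd4 cells and 203, 224, 228 and 233 CPM in Ccl5-high cells. It was the only member called higher (log2 fold change 0.41, SE 0.07, adjusted p = 7.0e-04, edgeR). Rps27 itself changed by -1.03 in the same cells, from at least 11513 CPM in each library to at most 7103 CPM. In Cd8 cells Rps27l had a log2 fold change of -0.11 that was not called (adjusted p = 0.069, edgeR), and Rps27 fell by 0.62.

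Among the other pairs, Rpl36a changed by -1.23 and its paralog Rpl36al by -0.53 in Cd4 cells, and by -1.14 and -0.37 in Cd8 cells. Rpl22 and Rpl22l1, whose proteins can replace each other in the large subunit, changed by -0.86 and -0.54 in Cd4 cells and by -0.71 and -0.75 in Cd8 cells. Rpl7 changed by -0.98 and -0.85 and its distant paralog Rpl7l1, at a mean of 58.5 CPM, by -0.29 and -0.65. The differences between paralogs were not tested. Rpl39l stood at a mean of 1.5 CPM, Rpl3l at 1 UMI in all classes and Rpl10l at 0 UMIs, so these tissue-restricted copies cannot be compared at this depth. Rps27rt, a near copy of Rps27, was counted at a mean of 241.8 CPM, and reads that fit both cannot be assigned to either.

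Lists of genes of related function were counted against the same background, 26.3% of all genes called lower and 26.3% higher in Cd4 cells and 27.2% lower and 27.7% higher in Cd8 cells. Of 40 ribosome biogenesis genes 35 were lower in Ccl5-high Cd4 cells (median -0.82), and 37 of 40 were lower in Cd8 cells (median -1.01). Npm1, the nucleolar chaperone, fell by 1.32 and 1.02 on the log2 scale. Of 38 translation factors and other TOP genes 31 were lower and 1 higher in Cd4 cells, and 32 were lower in Cd8 cells, with medians of -0.32 and -0.33. Among them Tpt1, a TOP mRNA encoding translationally controlled tumor protein, fell by 1.07 and 0.94, and Eef1a1, the factor that brings tRNAs, by 0.49 in Cd4 cells. Of 78 mitochondrial ribosomal protein genes, whose products serve the separate ribosome of mitochondria, 23 were lower and 15 higher in Cd4 cells and 43 lower and 9 higher in Cd8 cells, with medians of -0.12 and -0.21. Their share of lower calls in Cd4 cells was thus near the background.

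In the list of TOP and mTORC1 regulators, 10 of 22 genes were lower and 3 higher in Cd4 cells, and 11 lower and 2 higher in Cd8 cells. Myc, an activator of ribosome genes, fell from 34.7 to 42.9 CPM over the Ccl5-low Cd4 libraries to 10.5 to 18.8 CPM in the Ccl5-high ones, a log2 fold change of -1.67, and by 1.46 in Cd8 cells. Mxd4, which competes with Myc for its partner Max, rose from 56.6 to 82.4 CPM to 174 to 202 CPM in Cd4 cells, a log2 fold change of 1.43, and by 1.91 in Cd8 cells. The 3 pseudogenes tested of 5 listed fell in both lineages, with medians of -0.81 and -0.80, close to those of the members, and their reads cannot be told apart from those of near-identical parent genes.

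Between lineages at low Ccl5, 82 of 84 members were higher in Cd8 than in Cd4 cells, where 18.1% of all genes tested were called higher. None was lower, against 17.3% of all genes, nor was any at an unadjusted p under 0.05 or by DESeq2. The members' median log2 fold change was 0.30, and Rplp1 (0.43) and Rpsa (0.42) were at the upper end. With totals in place of TMM factors the median of all genes was -0.17 and that of the members 0.12, with 68 members higher and 3 lower, and the calls over all genes went from 1897 higher and 1815 lower to 899 and 4126. In Foxp3 against Cd4 cells, 80 of 83 members were lower and 1 higher, where 19.4% of all genes were called lower and 21.1% higher. The members' median was -0.66, against -0.02 for all genes, and with library totals these were -0.39 and 0.24. The calls over all genes went from 1975 higher and 1818 lower to 3889 and 731, and those of members to 3 higher and 75 lower.

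In that comparison Rps29 was lowest, with 16119, 16186, 16543 and 18201 CPM in Cd4 and 8760, 8542, 7377 and 8369 CPM in Foxp3 cells (log2 fold change -1.02, SE 0.05, adjusted p = 1.5e-10, edgeR). Rps27l was again the only member called higher, from 137, 144, 188 and 186 CPM to 206, 187.9, 277 and 259 CPM. Its log2 fold change was 0.50 (SE 0.06, adjusted p = 1.7e-06, edgeR), and within each library the Foxp3 cells had the higher value. Of the biogenesis genes 27 of 40 were lower in Foxp3 and 25 of 40 higher in Cd8 cells, each against Cd4 cells.

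**Figure D3:**
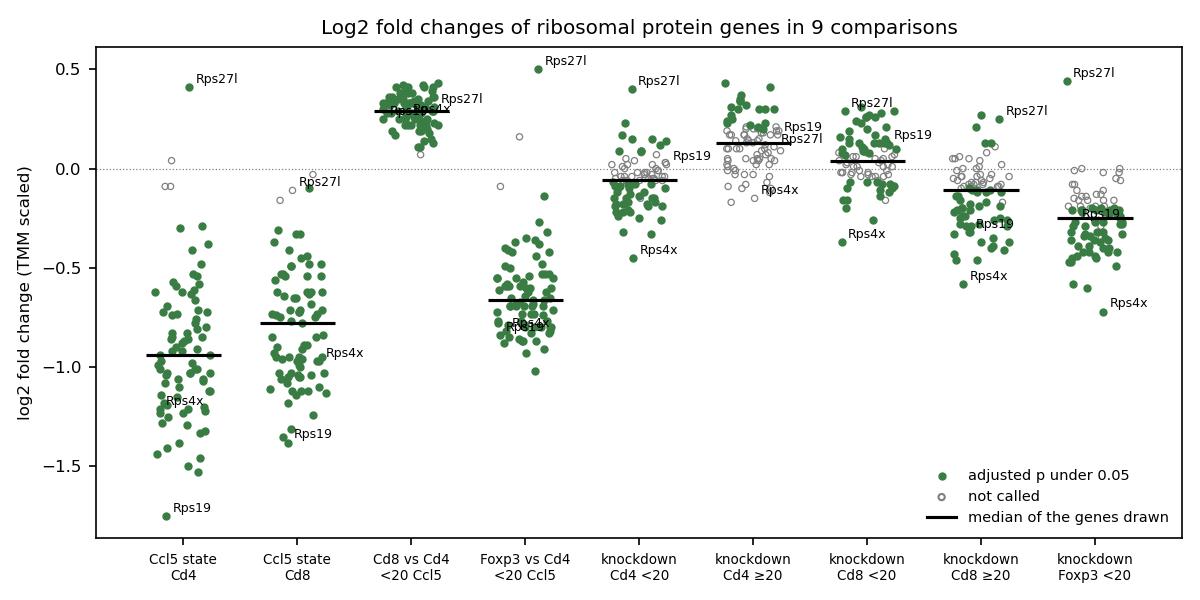
Log2 fold change (y axis, TMM scaled) of each ribosomal protein gene in 9 comparisons (x axis), filled where the adjusted p was under 0.05, with a line at the median and Rpl39l left out for its low level. The Ccl5 state medians are -0.94 and -0.77, while the medians of the knockdown comparisons on the right run from -0.25 in Foxp3 to 0.13 in Ccl5-high Cd4 cells, with Rps4x low and Rps27l high in most of them.

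The knockdown comparison asked whether members differed between T cells from sh-B7-H3 (1) and sh-NC tumors. Over all called barcodes the member share was 44.1 and 44% with sh-NC and 37.8 and 38.4% with sh-B7-H3 (1). Over the cells of the 6 classes it was 45.8 and 45.5% against 37.3 and 38.7%. Cells with at least 20 Ccl5 UMIs were 10.9 and 13.4% of these cells with sh-NC and 52.0 and 50.3% with sh-B7-H3 (1). When each library was given the class weights of the control, the shares were 45.7 and 45.6% against 43.5 and 44%. Most of the gap thus went with the changed mix of classes, and the rest was examined within classes.

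Within Ccl5-low Cd4 cells the share was 45.7 ± 0.0751% with sh-NC and 43.1 ± 0.560% with sh-B7-H3 (1) (SD, n = 2 each). It was 48.9 ± 0.0784% against 48.0 ± 0.145% in Ccl5-low Cd8 cells and 36.7 ± 0.316% against 33.2 ± 0.218% in Ccl5-high Cd8 cells. The largest gap was in Ccl5-low Foxp3 cells, 36.4 ± 0.599% against 30.9 ± 0.993%. In Ccl5-high Cd4 cells the knockdown libraries were the higher ones, 29.7 ± 0.717% against 28.1 ± 0.597%. In these 5 classes the libraries of both groups did not overlap. Gm42418, a transcript that overlaps ribosomal RNA, took 0.494 to 0.575% of the UMIs with sh-NC and 2.76 to 3.12% with sh-B7-H3 (1) in these classes. Without its UMIs in the total, a choice made after the data were seen, the difference in Ccl5-low Cd8 cells turned from -0.92 to 0.22 percentage points, with 49.2 and 49.1% against 49.3 and 49.4%. The differences of the other classes kept their sign, at -1.44 points in Ccl5-low Cd4, 2.25 in Ccl5-high Cd4, -2.69 in Ccl5-high Cd8 and -4.75 in Foxp3 cells.

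By gene, the direction depended on the class. In Ccl5-low Foxp3 cells 54 of 83 members were lower and 1 higher, where 3.12% of all genes were called lower and 3.37% higher (median -0.25). In Ccl5-high Cd8 cells 43 of 83 were lower and 5 higher, where 7.17% of all genes were lower and 6.6% higher (median -0.11). In cells with at most 10000 UMIs these medians were -0.10 (Foxp3) and 0.07 (Ccl5-high Cd8), as described below. In Ccl5-low Cd4 cells 36 of 84 were lower and 10 higher, where 4.98% of all genes were lower and 6.2% higher (median -0.05). In Ccl5-low Cd8 cells 32 of 84 were higher and 16 lower, where 4.69% of all genes were higher and 4.06% lower (median 0.04). In Ccl5-high Cd4 cells 20 of 83 were higher, where 1.41% of all genes were higher (median 0.13). None was lower by edgeR or DESeq2, against 1.75% of all genes, and 3 were lower at an unadjusted p under 0.05.

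The last of these counts depended on single libraries. Without knockdown library 1 or 2 edgeR called 0 of all genes tested in Ccl5-high Cd4 cells, members included. The members' median was then 0.18 and 0.11, and 40 and 19 members were higher at an unadjusted p under 0.05. Without control library 1 the members' median was 0.10. DESeq2 on all 4 libraries called 24 members higher, where 54 of 8952 genes tested were higher. In Foxp3 cells the members' median of -0.25 became -0.21 without control library 1 and also -0.21 without knockdown library 1. With library totals in place of TMM factors the Ccl5-low Cd8 cells turned to 23 higher and 33 lower members, with a median of -0.03, so no direction is given for them. There the calls over all genes went from 511 higher and 442 lower to 399 and 1026. Those of Ccl5-high Cd4 cells went from 126 and 157 to 107 and 324, with 18 members higher and 6 lower.

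Rps4x (chromosome X, 102184941 to 102189394, minus strand), an X-linked small subunit protein, was the lowest called member in 4 of the 5 classes. In Foxp3 cells it had 4890.0 and 4764 CPM with sh-NC and 2856 and 3006 CPM with sh-B7-H3 (1), a log2 fold change of -0.72 (SE 0.07, adjusted p = 2.2e-19, edgeR). It changed by -0.58 in Ccl5-high Cd8 cells, from 4727 and 4449 to 3071 and 3067 CPM. In Ccl5-low cells it changed by -0.45 (Cd4) and -0.37 (Cd8). In Ccl5-high Cd4 cells it had 3156 and 3122 CPM against 2778 and 2865 CPM, and this change of -0.15 was not called (adjusted p = 0.15, edgeR).

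Rps3a1, also of the small subunit, went with it. It changed by -0.33, -0.26, -0.41 and -0.58 in Ccl5-low Cd4, Ccl5-low Cd8, Ccl5-high Cd8 and Foxp3 cells on the log2 scale. Rpsa fell by 0.46 in Ccl5-high Cd8 cells, from 5741 and 5362 to 4051 and 4011 CPM. All of these were called, and the libraries of both groups were apart in each.

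Other members were higher with sh-B7-H3 (1). Rps27l had 226.5 and 206 CPM with sh-NC and 303 and 283 CPM with sh-B7-H3 (1) in Foxp3 cells, a log2 fold change of 0.44 (SE 0.08, adjusted p = 2.6e-05, edgeR). It was also called higher in Ccl5-low Cd4 (0.40), Ccl5-low Cd8 (0.29) and Ccl5-high Cd8 cells (0.25). In Ccl5-high Cd4 cells its 228 and 250.4 CPM with sh-NC and 254 and 259.9 CPM with sh-B7-H3 (1) were not called (0.11, adjusted p = 0.61, edgeR). Rpl13a had 5327 and 5337 CPM with sh-NC and 6711 and 6560.0 CPM with sh-B7-H3 (1) in Ccl5-low Cd8 cells, a log2 fold change of 0.31 (SE 0.02, adjusted p = 7.8e-10, edgeR). It rose in the 4 Cd4 and Cd8 classes, by 0.23 to 0.31, while in Foxp3 cells its 4341 and 4170.2 CPM against 4111 and 4309 CPM overlapped.

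Members called higher in Ccl5-high Cd4 cells included Rps29 with 0.41 and Rps23, a protein of the decoding center, with 0.37. Rps29 had 5922 and 6125 CPM with sh-NC and 7549 and 8402 CPM with sh-B7-H3 (1). Rps14 was higher by 0.17 in Ccl5-low Cd4 cells and Rpl27 by 0.21 in Ccl5-high Cd8 cells.

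The knockdown difference was then compared between Ccl5 states, as an interaction in 1 fit over both states of a lineage. In Cd4 cells the difference was more positive in Ccl5-high than in Ccl5-low cells for 50 of 83 members, where 0.987% of all genes were called so. None was called more negative by edgeR or DESeq2, against 3.16% of all genes, and 1 was at an unadjusted p under 0.05. In Cd8 cells it was more negative in Ccl5-high cells for 73 of 84 members, where 4.91% of all genes were called so. None was called more positive by edgeR or DESeq2, against 0.805% of all genes, and 2 were at an unadjusted p under 0.05. The median interaction was 0.20 in Cd4 and -0.19 in Cd8 cells. The Cd8 calls were lost in cells with at most 10000 UMIs (0 negative, median 0.04) and in cells with 3000 to 8000 UMIs (0 negative, median 0.06), at an unadjusted p under 0.05 for 1 and 0 members. The members' median Cd4 interaction was 0.19 without knockdown library 2 and 0.22 without knockdown library 1. The 50 Cd4 calls became 10 in cells with 3000 to 8000 UMIs (median 0.19) and 16 with doublets kept (0.14). They became 20 without an upper gene limit (0.12), 29 by DESeq2 (0.19) and 65 in cells with at most 10000 UMIs (0.24). Over all genes the positive calls went from 102 to 35 in cells with 3000 to 8000 UMIs and to 64 with doublets kept. They went to 60 without an upper gene limit, to 41 by DESeq2 and to 112 in cells with at most 10000 UMIs. Rps20 is an example: its interaction was 0.39 in Cd4 (SE 0.05, adjusted p = 8.6e-07, edgeR) and -0.37 in Cd8 cells (SE 0.02). With library totals the Cd8 interaction was called negative for 58 and positive for 2 members, and over all genes the calls went from 85 positive and 519 negative to 170 and 372. Rps20 stood at 10832, 10753, 9214 and 9596 CPM in Ccl5-low and at 3281, 3200.1, 3576 and 3807 CPM in Ccl5-high Cd4 cells, so the knockdown libraries were lower in the first and higher in the second.

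The make-up of a class moved with these differences. Lef1, a transcription factor of naive T cells, had 166 and 150.5 CPM with sh-NC and 103 and 109 CPM with sh-B7-H3 (1) in Foxp3 cells, and 60.1 and 50.5 CPM against 21.3 and 20.6 CPM in Ccl5-high Cd8 cells. Lef1 and Tcf7, another such factor, were lower with sh-B7-H3 (1) in each of the 5 classes tested. The 5 effector markers other than Ccl5 summed to 90.6 and 107.6 CPM with sh-NC and 879.2 and 639.8 CPM with sh-B7-H3 (1) in Ccl5-low Cd4 cells. Their sum went the other way in Ccl5-high Cd4 cells, with 14348 and 12361 CPM against 11070.2 and 9978 CPM. There Ccl4 (7747.2 and 5888.4 against 4503.3 and 3804.5 CPM), Gzmk and Gzmb were lower with sh-B7-H3 (1). Nkg7 was higher (5388.1 and 5374.4 against 5768.8 and 5478.8 CPM), and the Ifng values overlapped. The 7 myeloid markers, of which 5 to 7 were above 0 per library, summed to 9.61 to 28.1 CPM with sh-NC and 40.7 to 90.1 CPM with sh-B7-H3 (1). Cells with at least 5 UMIs of these markers other than Apoe had been left out, which limits the sum. Apoe alone had 2.04 to 17.9 CPM with sh-NC and 24 to 57 CPM with sh-B7-H3 (1). The median mitochondrial share of a cell was higher with sh-B7-H3 (1) in each of these classes, for example 3.44 and 3.4% against 2.9 and 2.9% in Foxp3 cells. The mitochondrial limit was passed by 2535 of 12112 and 2251 of 10589 called barcodes with sh-NC and by 2643 of 7030 and 3330 of 9129 with sh-B7-H3 (1). The part of these markers and of the mitochondrial share in the member differences was not tested.

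Cell depth moved with them as well. In Ccl5-high Cd8 cells, those over 10000 UMIs (62 to 77 per library) had a member share of 47.1 and 46.5% with sh-NC and 37.3 and 39.3% with sh-B7-H3 (1). They made up 17.1 and 14.1% of the class with sh-NC and 8.95 and 7.95% with sh-B7-H3 (1). The deep cells also differed in their markers. With sh-NC they had 128.9 and 94.7 CPM of Lef1 and 154.5 and 158.7 CPM of Tcf7, against 28.3 and 35.4 CPM and 23.2 and 35.9 CPM in the other cells of the class. The 5 effector markers other than Ccl5 summed to 2498 and 2569.9 CPM in the deep and to 7420.2 and 6698 CPM in the other cells. With sh-B7-H3 (1) these gaps were smaller in CPM, with 45.4 and 37.3 CPM of Lef1 in the deep against 16.6 and 17.7 CPM in the other cells, and effector sums of 5422 and 5248.7 against 7193.3 and 7059.6 CPM. Among the cells with at most 10000 UMIs the shares were 32.2 and 33% against 32.3 and 32.4%. In these cells, a limit chosen after the data were seen, 6 members were called lower and 26 higher, and the median turned to 0.07. Of 9462 genes tested there, 349 were lower and 372 higher. Cells with 3000 to 8000 UMIs likewise gave 6 members lower and 40 higher (median 0.10), where 214 of 9037 genes were lower and 252 higher. With at most 10000 UMIs the interaction in Cd8 cells was called negative for no member by edgeR (1 at an unadjusted p under 0.05) and positive for 1 (median 0.04). Of 10033 genes tested there, 184 were negative and 24 positive. Thus the lower median of Ccl5-high Cd8 cells was not seen without the deep cells, while Rps4x was still called there by edgeR, with log2 fold changes of -0.35 in this class and -0.55 in Foxp3 cells of at most 10000 UMIs. In Foxp3 cells with at most 10000 UMIs the shares were 34.5 and 32.7% against 29.9 and 30.8%, and 11 members were called lower, with a median of -0.10. Of 8428 genes tested there, 83 were lower, against 276 of 8843 without this limit. In Foxp3 cells with 3000 to 8000 UMIs 1 member was called lower, where 16 of 7782 genes were lower, and the members' median was -0.04. Calls over all genes thus fell along with those of the members.

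**Figure D4:**
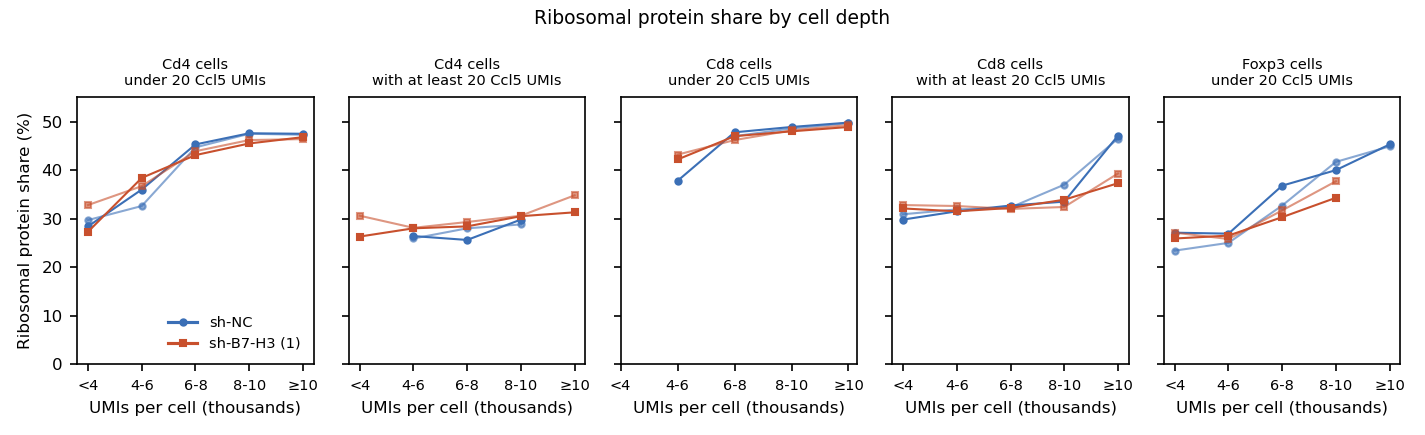
Share of UMIs from ribosomal protein genes (percent, y axis) by UMIs per cell (x axis, in units of 1000) for 5 cell classes, 1 line per library (circles sh-NC, squares sh-B7-H3 (1)), with bins of under 20 cells not drawn. In Ccl5-high Cd8 cells the lines run close together up to 8000 UMIs and lie apart at 10000 UMIs or more, where the control libraries reach 46.5 to 47.1%.

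Of the ribosome biogenesis genes 16 of 40 were lower in Ccl5-high Cd8 cells (median -0.27, with 7.17% of all genes lower), 9 of 39 in Foxp3 cells (median -0.48, with 3.12%) and 11 of 40 in Ccl5-low Cd4 cells (median -0.15, with 4.98%). In Ccl5-low Cd8 cells 6 of 40 were lower and 1 higher (median -0.05, with 4.06% of all genes lower). The TOP and mTORC1 regulators had medians of -0.02 in Ccl5-high Cd8 and 0.00 in Foxp3 cells. Npm1 had 1276 and 1177 CPM with sh-NC and 677 and 735 CPM with sh-B7-H3 (1) in Foxp3 cells, a log2 fold change of -0.80 (SE 0.07, adjusted p = 1.3e-21, edgeR). In Ccl5-high Cd4 cells the median of 39 biogenesis genes was -0.06. Ddit4, an inhibitor of mTORC1 induced by stress, had 114 and 123 CPM against 63.5 and 71.3 CPM in Ccl5-low Cd4 cells, a log2 fold change of -0.80. Of the 38 translation factors and other TOP genes, 12 were lower and 4 higher in Ccl5-low Cd4 cells (all genes: 4.98% lower, 6.2% higher). In Ccl5-low Cd8 cells 10 were lower and 4 higher (all genes: 4.06 and 4.69%). In Ccl5-high Cd8 cells 14 were lower and 1 higher (all genes: 7.17 and 6.6%), and in Foxp3 cells 12 were lower (all genes: 3.12%). In Ccl5-high Cd4 cells 2 were lower and 2 higher (all genes: 1.75 and 1.41%). Among those higher, Eef1g, a subunit of the elongation factor complex, changed by 0.33 in Ccl5-low Cd4 and 0.40 in Ccl5-low Cd8 cells. Of the 78 mitochondrial ribosomal protein genes 6 were called in Ccl5-low Cd4 cells, all lower, where 4.98% of all genes were lower and 6.2% higher. In the other classes 1 to 3 were called, all lower, where 1.75 to 7.17% of all genes were lower. These calls were thus few in number but not far from the background. The median was -0.02 in Ccl5-high Cd8 and -0.11 in Foxp3 cells.

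The knockdown log2 fold change of members fell with their length. Over the members tested, Spearman's rho between the knockdown log2 fold change and the median length of the coding transcripts was -0.46 and -0.46 in Ccl5-low and Ccl5-high Cd4 cells (n = 84 and 83 genes). It was -0.45 and -0.45 in Ccl5-low and Ccl5-high Cd8 cells (84 and 83) and -0.47 in Foxp3 cells (83). Over the other genes tested rho was 0.00 to 0.12. The median log2 fold change in Ccl5-low Cd8 cells was 0.13 for the 28 shortest and -0.02 for the 28 longest members. The medians of the 27 shortest and 27 longest were both below 0 in Ccl5-high Cd8 cells, -0.05 and -0.20, and in Foxp3 cells, -0.16 and -0.32. For the Ccl5 states rho was only -0.11 in Cd4 and -0.19 in Cd8 cells, and for the lineages 0.05 and 0.02. The 5 knockdown values come from the same 4 libraries, and members are not independent of each other, so they describe these libraries and are given without a test. Rps20 has the longest median length (3706 bases), through long annotated transcripts.

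**Figure D5:**
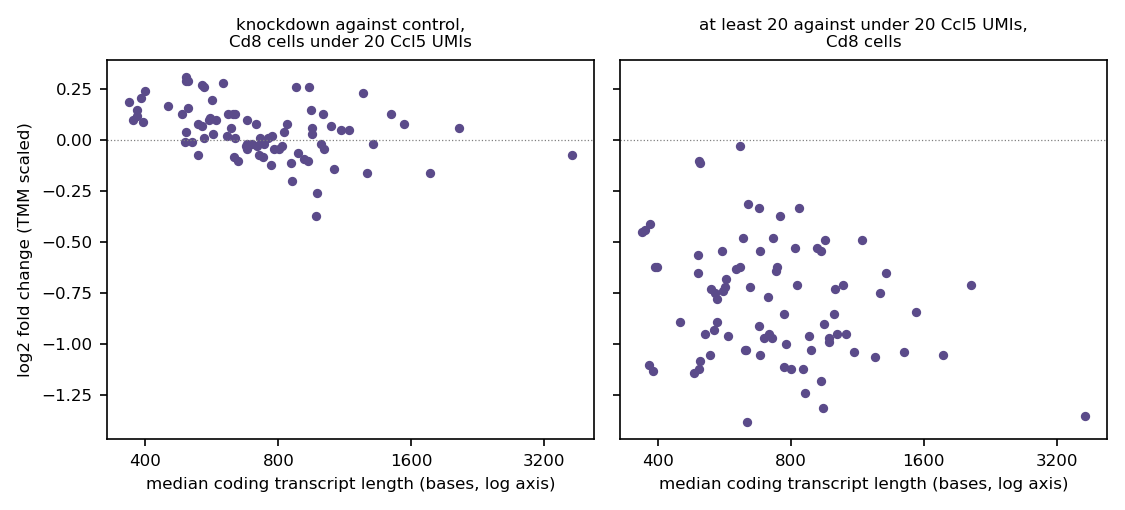
Log2 fold change of each ribosomal protein gene (y axis, TMM scaled) against the median length of its coding transcripts in bases (x axis, log scale), for the knockdown in Ccl5-low Cd8 cells (left) and for the Ccl5 state in Cd8 cells (right), with Rpl39l left out. The left cloud falls with length (rho -0.45 over 84 genes with Rpl39l), while the right one does so little (rho -0.19).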

How the data were processed

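The authors sorted CD3-positive cells from pooled tumors, made CITE-seq libraries with 10x Genomics 3′ chemistry and ran Cell Ranger with STAR against mm10. They deposited UMI counts per gene and barcode, without normalization (per the file headers, filtered and raw matrices). Seurat 4.0.0 is named in the submitters' notes. Cell Ranger counts only reads that fit a single gene, which lowers members with near-identical copies. Antibody tag counts were not used here.

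From these counts, cells with 200 to 3000 genes and at most 5% mitochondrial UMIs were kept, the study's limits. Doublets were scored against 2 simulated doublets per cell in 30 principal components of 2000 variable genes, and the top 0.8% per 1000 barcodes were removed (5.62 to 9.69% of the cells). Cells without Cd3 UMIs or with myeloid (at least 5) or B cell (at least 3) UMIs were left out. Cd8 cells had at least 3 UMIs of Cd8a and Cd8b1 and none of Cd4 or Foxp3. Foxp3 cells had Foxp3, and Cd4 cells Cd4 without Foxp3, both with at most 1 Cd8 UMI. The classes held 2386 to 5158 cells per library.

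Sums per library and class were tested with edgeR 4.0.16 (R 4.3.3; TMM, filterByExpr, quasi-likelihood), which pools the spread over all genes, so that adjusted p-values can be very small with 2 libraries. In Ccl5 state, lineage and interaction fits the library was a block. DESeq2 1.42.0, the study's test, was an alternative. The scripts were tested on simulated data. Sums over the 86 members and correlations over genes were not tested. Of the members, 83 passed the filter on low counts in all 11 comparisons and Rpl3l and Rpl10l in none. Named were, per comparison, up to 3 called members at either end among those of at least 50 CPM with libraries apart, the 5 most abundant, the paralog pairs, 7 members and the constituents by role, and genes of the lists. Some genes that this rule names are not reported here. The members and lists were chosen with earlier results of these data known. In all, 13 alternatives were planned and 3 added after the data were seen (cells with at most 10000 UMIs, cells with at least 3000 UMIs, and shares without Gm42418). Nothing in the labels tells a batch, so handling and knockdown cannot be told apart.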

Additional observations from a re-analysis of the deposited data

Results flagged for a closer look

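The knockdown difference of ribosomal protein genes differed between Ccl5-high and Ccl5-low cells of the same lineage, by the interaction term of edgeR's quasi-likelihood test. It did so for 50 of 83 members in Cd4 cells and for 73 of 84 in Cd8 cells, in opposite directions. In Cd8 cells the calls were lost when only cells with at most 10000 UMIs were used (median 0.04). In Cd4 cells they fell to 10 in cells with 3000 to 8000 UMIs, with a median of 0.19 against 0.20 in the main run. Positive calls over all genes fell there from 102 to 35. Without knockdown library 2 the Cd4 median was 0.19. The differences are thus described for these libraries and settings only. Their cause was not tested.

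Barcodes that were not called as cells, with 1 to 100 UMIs each, also held ribosomal protein UMIs. The members' share there was 36.2 and 36.7% with sh-NC and 31.8 and 34.6% with sh-B7-H3 (1), below the 37.8 to 44.1% of the called barcodes. These barcodes served only to estimate the free RNA that an alternative removed from each class.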

How the results depend on the processing

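For Ccl5 states and lineages, the counts of members called in the main direction stayed within 1.5 times under every alternative run, while with library totals those called the other way went from 0 or 1 to 3 in each. The knockdown counts moved further. In cells with 3000 to 8000 UMIs, Ccl5-low Cd4 cells had 21 members lower and 10 higher, and Ccl5-low Cd8 cells 11 higher and 3 lower. Ccl5-high Cd8 cells had 6 lower and 40 higher (median 0.10) and Foxp3 cells 1 lower. The interactions had 10 (Cd4, median 0.19) and 0 (Cd8, median 0.06). Over all genes, these classes in the same order then had 245, 74, 214 and 16 lower calls, against 527, 442, 698 and 276 in the main run. In cells with at most 10000 UMIs, the member counts were 31 higher in Ccl5-high Cd4 (137 of all genes) and 11 lower in Foxp3 cells (83 of all genes). Ccl5-high Cd8 cells had 6 lower and 26 higher (349 and 372 of all genes, median 0.07), and the Cd8 interaction 0 (median 0.04). Without a filter on low counts there were 35 higher in Ccl5-high Cd4 and 24 lower in Foxp3 cells and 76 in the Cd4 interaction. Over all genes these calls were 226, 46 and 185, against 126, 276 and 102 in the main run. Without an upper gene limit the members had 12, 28 and 20 and all genes 125, 212 and 60. A mitochondrial limit of 10% gave 33 lower in Foxp3 cells (254 of all genes). Keeping doublets gave 16 in the Cd4 interaction (64 of all genes). For the interactions DESeq2 gave 29 in Cd4 (41 of all genes) and 41 in Cd8 cells (161 of all genes). Library totals gave a median of -0.03 in Ccl5-low Cd8 cells. Without Gm42418 in the total, the share difference was 0.22 points in Ccl5-low Cd8, -1.44 in Ccl5-low Cd4 and -2.69 in Ccl5-high Cd8 cells. The cause was not tested.

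Leaving out each library gave 26 to 49 lower in Ccl5-low Cd4 cells, 0 to 14 higher in Ccl5-high Cd4 cells, 26 to 32 higher in Ccl5-low Cd8 cells, 35 to 47 lower in Ccl5-high Cd8 cells and 21 to 63 lower in Foxp3 cells. It gave 79 to 79 lower for both Ccl5 states, 78 to 82 higher in Cd8 and 79 to 80 lower in Foxp3 against Cd4 cells, and 10 to 69 (Cd4) and 60 to 71 (Cd8) for the interactions. In the Cd4 interaction it was 24 without knockdown library 1 and 10 without library 2. A lone library was assumed to vary like the others.

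With the replicate number as a block, 42 members were higher in Ccl5-high Cd4 cells (175 of all genes) and 34 lower in Foxp3 cells (229 of all genes). Over all genes tested, residuals of same-numbered libraries correlated at -0.00546 to 0.0088. These values cover all genes together, so they cannot exclude a shared replicate effect on the members. With 2 libraries a group, differences between mice cannot be seen, and Ccl5-high Foxp3 cells, under 20 in each control library, were not tested.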

Other observations

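Within the member UMIs, the small subunit took 47.9 to 48.1% in Ccl5-low and 44.3 to 45.0% in Ccl5-high Cd4 cells over the 4 libraries. In Cd8 cells it took 47.5 to 47.8% and 44.5 to 45.5%, so the Ccl5-high libraries lay lower in both lineages.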
